A study of Homo sapiens with 7 samples.

Results

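The genes described here are 9 very long human genes that lie across common fragile sites: FHIT, WWOX, IMMP2L, LRP1B, MACROD2, DAB1, CTNNA3, CNTNAP2 and NBEA. They are represented by the array probes that carry one of these gene symbols. All 9 symbols were found, out of 27927 gene names, with 1075 of 169544 probes on the larger array design and 287 of 54807 on the smaller one. All 9 were among the 4515 genes with at least 3 probes on every array, which were the genes tested.

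Each of the 7 arrays compared DNA newly made in early S phase (Cy3) with DNA newly made in late S phase (Cy5) from unmodified cells of 1 line, with the same dyes throughout, so dye and timing cannot be told apart. Cells took up 50 µM bromodeoxyuridine, a thymidine analogue, for 2 h, and 80000 were sorted by DNA content. K562, a chronic myeloid leukaemia line, was on 3 arrays (new cell sorting method, old cell sorting method, and an array titled 44k, n = 1 each), and U2OS, an osteosarcoma line, on 4 (manual, n = 2, and automated, n = 2). Nothing in the labels says that arrays of a line came from separate cultures, so p-values measure the spread between these arrays, which may be technical, and no slide held both lines, so line and slide cannot be told apart.

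Common fragile sites are stretches of normal chromosomes that show gaps and breaks when DNA synthesis is slowed, as with a low dose of aphidicolin. Many of them span very long genes, finish replication late in S phase and hold few replication origins in their centres, and the sites that break differ between cell types. Replication timing is a property of domains that can be longer than any single gene, and the borders between early and late domains are known as timing transition regions.

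Timing is given as log2(early/late) relative to the median probe of each array. A positive value is earlier than that median probe, and a negative value is later. A gene's level is the mean over its probes, values of a line are means ± SD over its arrays (n = 3 for K562, n = 4 for U2OS), and a difference is K562 minus U2OS with its standard error (SE). "Passed the test" means a Benjamini-Hochberg adjusted p under 0.05 in limma over all genes or windows tested.

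The number of arrays limits the precision, and the arrays were not equally bright. Between 0.842% and 17.2% of spots on the larger design, and 49.8% on the 44k array, had a signal replaced by the scanner software because it was too weak. The median absolute deviation of probe values ran from 1.32 on the 44k array to 2.30 on the new-sorting K562 array, so distances from 0 are not on the same scale on all arrays. The lines matched their labels at 3 marker loci: the total signal (mean log2 of both channels) of ABL1 and BCR, which are joined and multiplied in K562, was 2.0 to 2.65 and 1.55 to 1.89 above the array median in K562 against -0.45 to 0.56 and 0.29 to 0.86 in U2OS. For CDKN2A, which K562 has lost, total signal was -2.67 to -1.36 in K562 and -1.08 to -0.52 in U2OS.

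The first question was when these genes replicate in each line. All 9 lay on the late side of the median probe on all 7 arrays, and in both lines the level of each of the 9 passed the test against 0. In K562, single-array levels ran from -3.14 to -0.32, and in U2OS from -2.48 to -1.20. Among all 4515 genes tested, 27.2% had negative means in both lines, and the median gene stood at 0.60 in K562 and 0.61 in U2OS. The median of the 9 was -1.89 in K562 and -1.94 in U2OS.

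**Figure D1:**
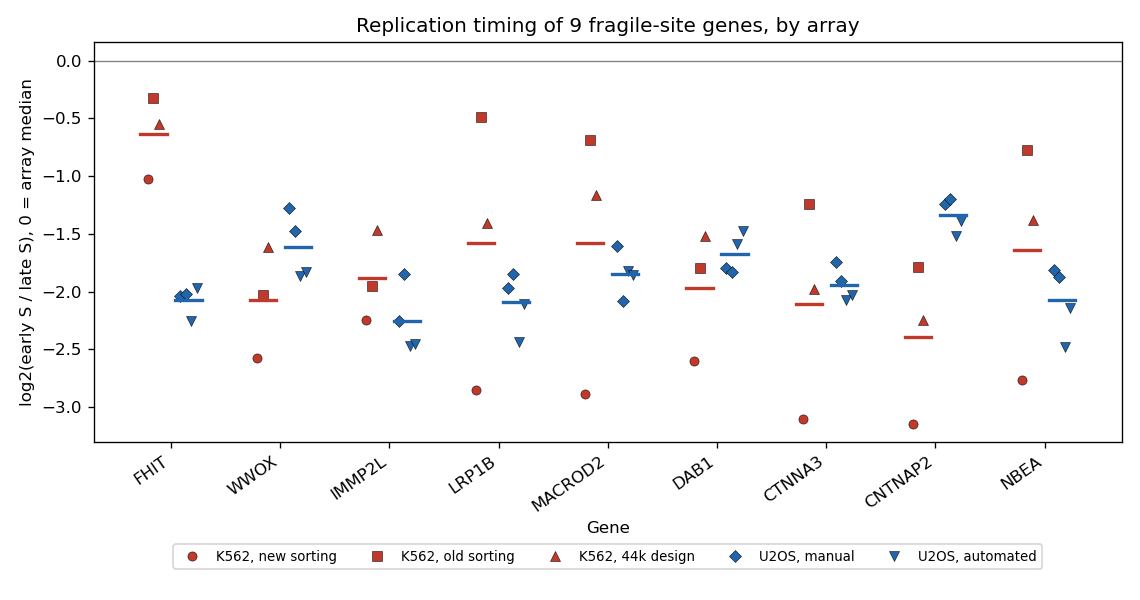
Replication timing of the 9 genes on every array, as log2(early S/late S) with 0 at the array's median probe. Symbols are single arrays (red K562, n = 3; blue U2OS, n = 4) and bars are means; every symbol lies below 0, and FHIT and CNTNAP2 are the genes whose red and blue symbols do not overlap.

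Late timing was also usual for other long genes, though not for all of them. Of 243 other tested genes that span at least 500 kb, 79.8% had negative means in both lines, and their median was -1.55 in K562 and -1.43 in U2OS. Their median span was 678 kb against 1491 kb for the 9. A list of 12 other fragile-site genes (AUTS2, DLG2, DMD, DPYD, ERBB4, ESRRG, IL1RAPL1, LARGE, LSAMP, NAALADL2, RORA and THSD7A) was negative in both lines for all 12, with a median of -1.65 in K562 and -1.58 in U2OS. THSD7A was the latest of them in both lines (-2.23 and -2.33), while LSAMP was the least late in K562 (-0.70) and RORA in U2OS (-0.25). The probes themselves did not set the 9 apart in base composition. The median GC content of their probes was 36.7%, equal to that of all probes, and the gene means ran from 35.9% (CTNNA3) to 36.8% (WWOX).

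Ranks are free of the arrays' scales. On the 4 U2OS arrays the 9 genes lay between the percentiles 1.56 and 17.5 of all tested genes, counted from the latest. On the K562 arrays they reached from 1.96 up to 34.2. The upper end there was FHIT on every K562 array, at 25.8 to 34.2, a gene that stood between 3.75 and 8.76 in U2OS.

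Between the lines, 2 of the 9 genes differed in level, in opposite directions: FHIT was earlier in K562 and CNTNAP2 was later. Over all genes tested, 30.8% passed the same test, 15.1% as earlier and 15.7% as later in K562, so 2 of 9 is no larger a share than the background. FHIT, a hydrolase of diadenosine polyphosphates often deleted in carcinomas, read -1.03, -0.32 and -0.55 on the new-sorting, old-sorting and 44k K562 arrays. In U2OS it read -2.04 and -2.02 (manual) and -2.26 and -1.97 (automated). All 3 K562 values therefore lay above all 4 of U2OS. The means were -0.63 ± 0.36 and -2.07 ± 0.13, with a difference of 1.44 (SE 0.26, adjusted p = 0.000797).

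CNTNAP2, a neurexin-family adhesion protein of axons and the longest of the 9, read -3.14, -1.79 and -2.25 in K562. In U2OS it read -1.24 and -1.20 by manual and -1.52 and -1.39 by automated handling. Again the lines did not overlap, as in 37.1% of all tested genes, and here K562 was the later line. The means were -2.39 ± 0.69 and -1.34 ± 0.15, and the difference was -1.06 (SE 0.31, adjusted p = 0.0202).

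Neither call held under every alternative. With spot means corrected by normexp and an offset of 50 the FHIT difference was 0.60 (adjusted p = 0.0906), and with no background correction 0.57 (adjusted p = 0.0743). Without dim spots the CNTNAP2 difference was -0.85 (adjusted p = 0.10), with surrogate spots dropped -0.84 (adjusted p = 0.0813), without the new-sorting K562 array -0.68 (adjusted p = 0.0626) and without the second manual U2OS array -1.01 (adjusted p = 0.0505). Against the manual arrays alone it was -1.17 (adjusted p = 0.0703) and against the automated arrays alone -0.94 (adjusted p = 0.128).

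The other 7 genes did not pass the test of a level difference. Their differences ran from -0.46 (WWOX, SE 0.29) to 0.51 (LRP1B, SE 0.43). Arranged from late to less late, the U2OS means were IMMP2L (-2.26), LRP1B (-2.09), NBEA (-2.08), FHIT (-2.07), CTNNA3 (-1.94), MACROD2 (-1.84), DAB1 (-1.67), WWOX (-1.61) and CNTNAP2 (-1.34), with SDs from 0.13 to 0.31. Each gene differed from its neighbour in this order by less than the larger of their SDs. In K562 the order was CNTNAP2 (-2.39), CTNNA3 (-2.11), WWOX (-2.07), DAB1 (-1.97), IMMP2L (-1.89), NBEA (-1.64), LRP1B and MACROD2 (both -1.58) and FHIT (-0.63), with SDs from 0.36 to 1.19. There too each gene differed from its neighbour by less than the larger SD.

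LRP1B (a giant receptor of the low-density lipoprotein receptor family), MACROD2 (which removes ADP-ribose from proteins) and NBEA (neurobeachin, a scaffold of vesicle traffic) varied most between the K562 arrays. LRP1B read -2.85, -0.49 and -1.41 on the new-sorting, old-sorting and 44k arrays. MACROD2 read -2.89, -0.69 and -1.17, and NBEA read -2.77, -0.78 and -1.38. The old-sorting array was the least late for all 3. On that array 37.5% of LRP1B spots, 49.4% of MACROD2 spots and 41.3% of NBEA spots had a replaced signal. The share there was 8.0% (FHIT) to 26.5% (DAB1) for the other genes and 14.5% for all spots. With such spots dropped on every array, none of the 3 passed the test of a level difference between the lines. The part of replaced signals in their K562 levels was not tested otherwise. Without the new-sorting array all 3 passed the test as earlier in K562 (4 of the 9 genes then passed, with FHIT), at differences of 1.14, 0.916 and 0.997. Over all 4515 genes, leaving out each array in turn gave 1102 to 1523 that passed, against 1391 with all arrays.

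The second question was whether a gene replicates later than what surrounds it, which was asked as the gene's level minus the mean of the 1 Mb on each side. In U2OS, 7 of the 9 genes were later than their flanks by this test, where 19.0% of all 4497 genes were (49.0% differed in either direction): FHIT, WWOX, IMMP2L, DAB1, CTNNA3, CNTNAP2 and NBEA. In K562, 4 of the 9 were, against 20.6% of all genes (55.0% in either direction): WWOX, DAB1, CTNNA3 and CNTNAP2. In U2OS the CNTNAP2 and NBEA calls were lost with normexp and an offset of 50 (-0.34, adjusted p = 0.109, and -0.25, adjusted p = 0.0584) and without background correction, and the IMMP2L call with 500-kb flanks (-0.31, adjusted p = 0.0593). None of the 9 was earlier than its flanks by this test in either line, as 30.0% of all genes were in U2OS and 34.4% in K562. Of the 242 other genes of at least 500 kb, 139 were later than their flanks in U2OS and 136 in K562.

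**Figure D2:**
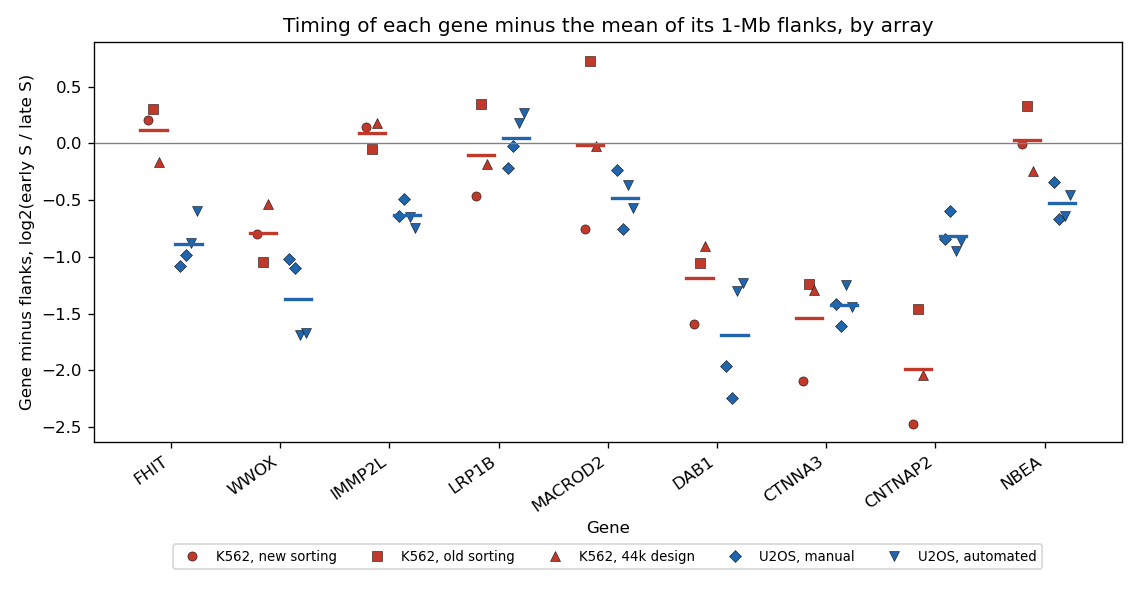
Level of each gene minus the mean of its flanks of 1 Mb on either side, by array (red K562, n = 3; blue U2OS, n = 4; bars are means). Values below 0 are genes later than their surroundings; FHIT and IMMP2L lie near 0 in K562 and below 0 on all 4 U2OS arrays, and CNTNAP2 is lower in K562.

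DAB1, CTNNA3 and CNTNAP2 were the furthest below their flanks in K562, and in both lines their flanks at higher coordinates were the early ones. DAB1 (an adaptor of reelin signalling in migrating neurons) minus its flanks was -1.18 ± 0.36 in K562 and -1.68 ± 0.49 in U2OS. CTNNA3 (alpha-T-catenin, of cell junctions in heart) minus its flanks was -1.54 ± 0.48 and -1.43 ± 0.15. For CNTNAP2 it was -1.99 ± 0.51 and -0.81 ± 0.15. The higher-coordinate flank stood at 0.52 ± 0.19 in K562 and 1.15 ± 0.21 in U2OS for DAB1, at 1.18 ± 0.19 and 1.4 ± 0.23 for CTNNA3, and at 1.27 ± 0.05 and 0.81 ± 0.17 for CNTNAP2. Against that flank alone the values of the 3 genes ran from -3.67 to -2.15. Against the lower-coordinate flank alone, which was late for all 3 genes, the values ran from -0.55 (DAB1 in U2OS) to 0.52 (CNTNAP2 in U2OS). By that comparison DAB1 in U2OS was still later than its flank (adjusted p = 0.0456), CNTNAP2 and CTNNA3 (0.49) in U2OS were earlier than theirs (adjusted p = 0.0116 and 0.0133), and none of the 3 passed in K562.

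The place where timing turned early was close to the end of the gene for these 3. It was taken, on the 6 larger arrays, as the first of 2 successive 100-kb bins above 0 on the way out of the gene. For CTNNA3 it was the bin that begins at the last probe of the gene on all 6 arrays. For CNTNAP2 it began between 100 kb inside the gene and 100 kb beyond it in U2OS, and 0 to 100 kb beyond it in K562. For DAB1 it began 0 to 100 kb beyond the gene in U2OS and 200 kb beyond it on both K562 arrays. DAB1 and CTNNA3 are transcribed toward lower coordinates and CNTNAP2 toward higher ones, per RefSeq, so the early border was at the promoter end of DAB1 and CTNNA3 and at the far end of CNTNAP2. No such turn lay within 1 Mb of LRP1B or NBEA on any of the 6 arrays.

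Between the lines, 3 of the 9 genes differed in this contrast with their flanks (30.8% of all genes did, 17.1% as higher and 13.8% as lower in K562): FHIT and IMMP2L were higher in K562 and CNTNAP2 was lower. FHIT minus flanks was 0.20, 0.30 and -0.16 on the K562 arrays and -1.08, -0.98, -0.87 and -0.60 on the U2OS arrays, a difference of 1.0 (SE 0.22, adjusted p = 0.00322). IMMP2L, a subunit of the peptidase of the mitochondrial inner membrane, was 0.15, -0.05 and 0.18 in K562 and -0.64, -0.49, -0.65 and -0.74 in U2OS. Its difference was 0.72 (SE 0.20, adjusted p = 0.0135), and it missed the threshold with 500-kb flanks (0.45, adjusted p = 0.095), with normexp and an offset of 50 (0.32, adjusted p = 0.0899) and without the second automated array (0.69, adjusted p = 0.0529). CNTNAP2 was -2.47, -1.46 and -2.04 in K562 and -0.84, -0.59, -0.95 and -0.86 in U2OS, a difference of -1.18 (SE 0.25, adjusted p = 0.00237) that passed under all 23 alternatives tried, with values from -1.52 to -0.67. In each of these genes the arrays of the lines did not overlap, as in 1644 of all 4497 genes. The lines did not overlap for NBEA either, whose difference did not pass (0.55, SE 0.22, adjusted p = 0.068).

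The 2 flanks of FHIT differed. In K562 the gene minus its lower-coordinate flank was -0.85 (adjusted p = 0.00173) and earlier than its higher-coordinate flank by 1.08 (adjusted p = 0.000298), tests that 50.9% and 51.1% of all genes passed in either direction. In U2OS it was later than either, at -1.13 and -0.64 (adjusted p = 6.05e-05 and 0.00534), where 48.9% and 49.2% of all genes passed. Against the lower flank alone the difference between the lines did not pass (0.28, SE 0.25, adjusted p = 0.426; 32.4% of all genes passed), and that flank itself read 0.22 ± 0.19 in K562 and -0.94 ± 0.24 in U2OS. Against the higher flank alone the difference was 1.72 (SE 0.26, adjusted p = 0.000207), a test that 32.5% of all genes passed.

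The third question was how timing runs from one end of each gene to the other, with the gene cut into 3 equal lengths and the value taken as the mean of the highest-coordinate length minus that of the lowest. Among 482 genes with enough probes at both ends, 37.1% differed between the lines, 16.4% with a lower and 20.7% with a higher value in K562. Of the 9, 3 did: FHIT, DAB1 and CTNNA3, each with a lower value in K562. Within K562 the ends differed in FHIT and IMMP2L (50.4% of all genes), and within U2OS in DAB1, CTNNA3 and CNTNAP2 (43.6% of all genes).

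**Figure D3:**
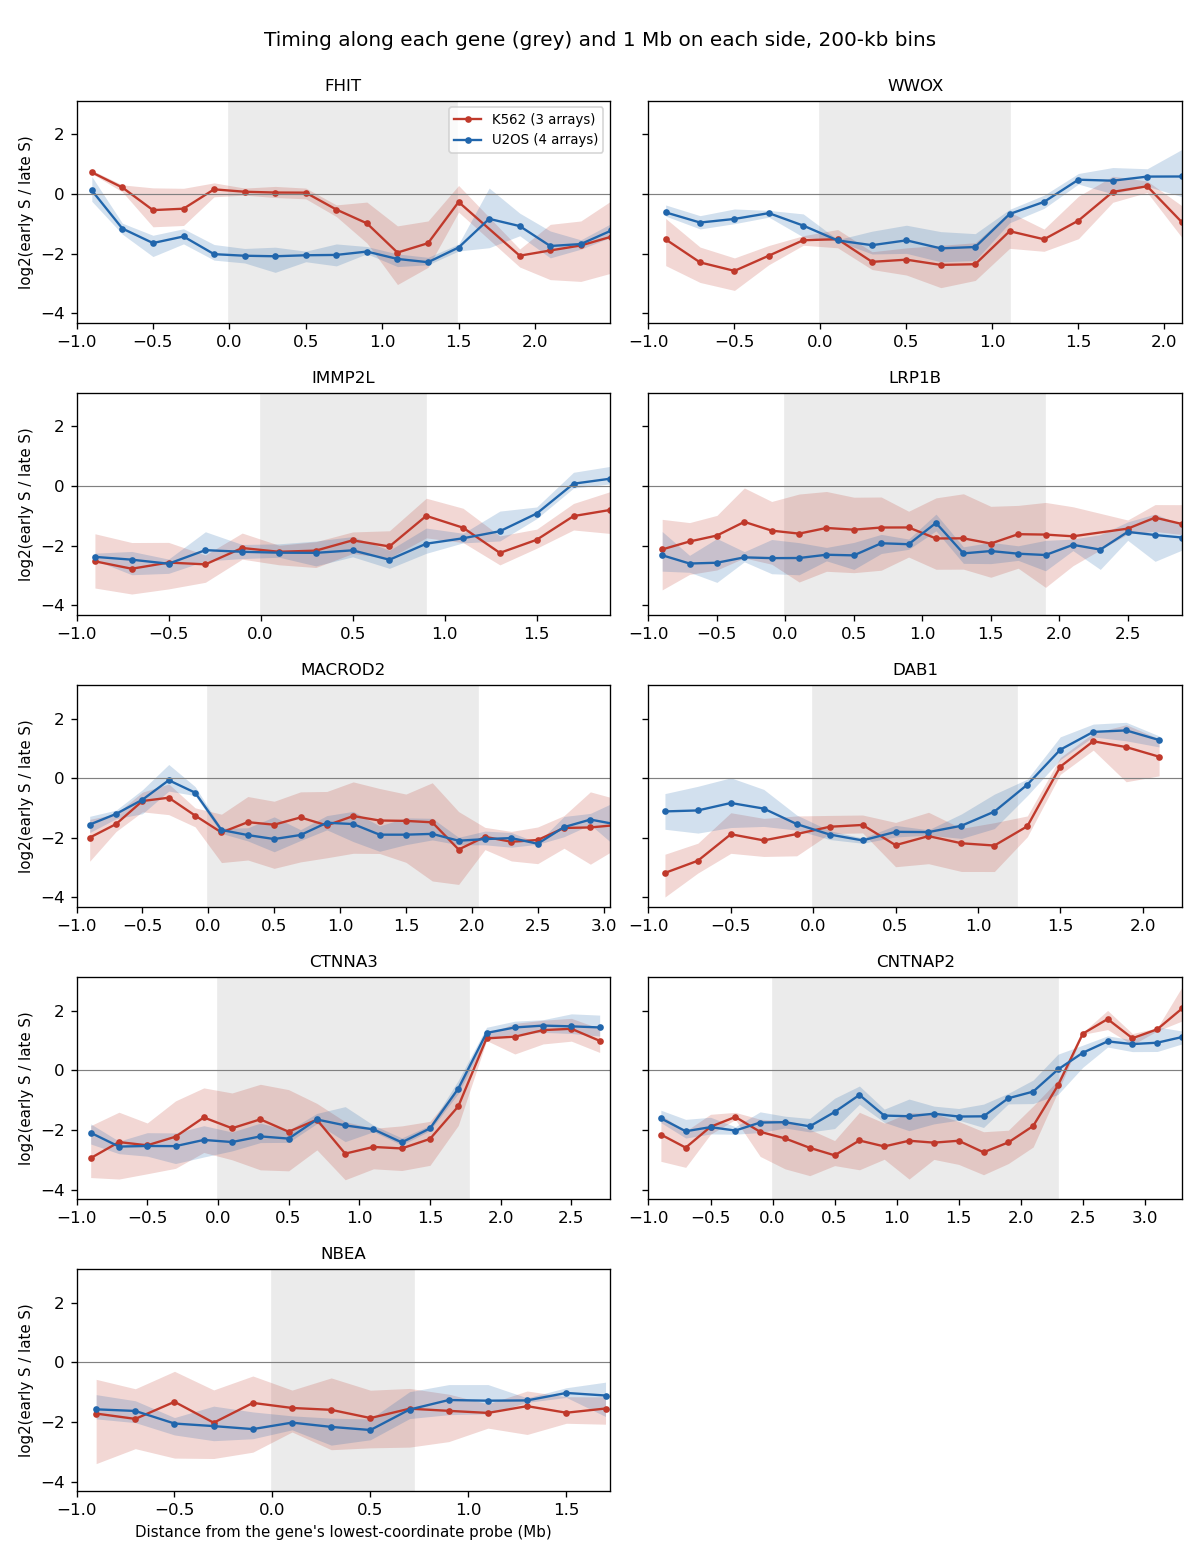
Timing along each gene (grey band) and 1 Mb on either side in 200-kb bins, against the distance from the gene's probe of lowest coordinate in Mb. Lines are means and bands the range over arrays (red K562, n = 3; blue U2OS, n = 4); FHIT runs from about 0 into late values in K562 and is late throughout in U2OS, while DAB1, CTNNA3 and CNTNAP2 end at an early flank in both lines.

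FHIT kept this difference under each of the 23 alternatives tried, with values from -1.82 to -0.62. Its probes span chr3:59740155-61231349 (hg19), and the gene is transcribed toward lower coordinates, so its promoter end is the higher one. At the lower end the K562 arrays read 0.08, 0.19 and -0.03, which is the timing of the median probe, and the U2OS arrays read between -2.43 and -1.91. At the higher end K562 read -2.39, -0.77 and -1.38 and U2OS between -2.27 and -2.03. The end-to-end value was -1.59 ± 0.79 in K562 and -0.09 ± 0.19 in U2OS, with a difference of -1.5 (SE 0.33, adjusted p = 0.00152).

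In 5 equal parts from low to high coordinate, FHIT in K562 went from 0.01 to 0.13, -0.66, -1.65 and -1.23. The U2OS values were -2.07, -2.07, -1.93, -2.16 and -2.12, a range of only 0.24. The fall in K562 came in the middle of the gene. On the 2 larger K562 arrays the turn from late to early lay 500 kb (new sorting) and 300 kb (old sorting) inside the lower end. The old-sorting array also turned early 100 kb inside the higher end. No turn was found on the 4 U2OS arrays. Of the 6 windows of 250 kb inside FHIT, 5 were earlier in K562 by the test, where 14.6% of all 8913 windows were. The largest difference was at chr3:60000001-60250000, with 0.22 ± 0.17 in K562 and -2.07 ± 0.30 in U2OS (2.30, SE 0.23, adjusted p = 0.000112). The window that did not pass, chr3:60750001-61000000, was the latest in both lines, at -2.04 ± 1.0 and -2.25 ± 0.22.

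To show what was measured at the ends of FHIT, the probe nearest the middle of each end length, among those that both designs carry, is printed as the array files list it, with its longest run of A and T in capitals. The lower one is at chr3:60011102-60011161 and the higher one at chr3:60993023-60993082.
FHIT lower end: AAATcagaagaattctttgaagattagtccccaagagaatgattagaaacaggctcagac
FHIT higher end: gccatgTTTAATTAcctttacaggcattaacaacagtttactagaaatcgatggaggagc
The lower probe averaged -0.33 ± 0.81 in K562 and -2.71 ± 0.68 in U2OS, and the higher one -2.24 ± 1.38 and -2.35 ± 1.09. Single probes were thus noisier than the mean of the end they belong to, and their longest runs of A and T were 4 and 8 bases.

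**Figure D4:**
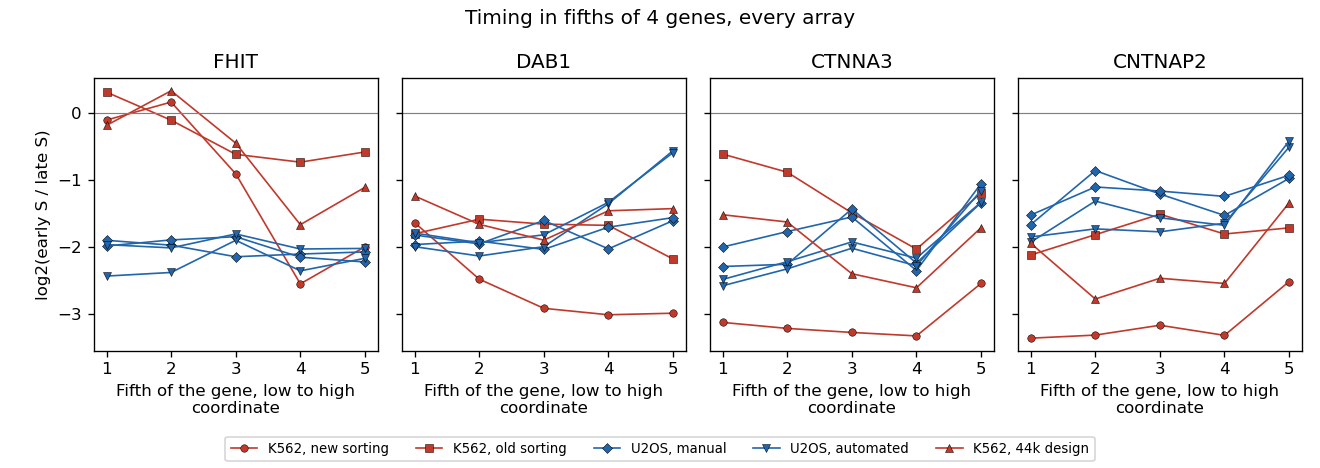
Timing in 5 equal parts of FHIT, DAB1, CTNNA3 and CNTNAP2, from low to high coordinate, on every array (red K562, blue U2OS). In FHIT the first 2 parts lie near 0 on all 3 K562 arrays and near -2 on all 4 U2OS arrays, and at the last part of DAB1 the automated U2OS arrays lie above the manual ones.

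DAB1 and CTNNA3 also differed between the lines in their end-to-end value, and both abut an early flank at the higher end. DAB1 (chr1:57463557-58702557) had end-to-end values of -1.20, -0.28 and -0.29 in K562 and, in U2OS, of 0.04 and 0.34 by manual and 1.33 and 1.07 by automated handling. K562 was thus below U2OS on every array. In this value the arrays of the lines did not overlap, in either direction, for 190 of all 482 genes. The DAB1 difference was -1.29 (SE 0.34, adjusted p = 0.00646). In the last of 5 equal parts DAB1 read -2.20 ± 0.78 in K562 and -1.08 ± 0.58 in U2OS. The U2OS arrays split there by handling, at -1.61 and -1.56 for manual and -0.56 and -0.59 for automated, a split that was not tested. Against the automated arrays alone the difference was -1.79 (adjusted p = 0.00441) and against the manual arrays alone -0.78 (adjusted p = 0.163). It also missed the threshold with normexp and an offset of 50 (-0.74, adjusted p = 0.0535) and without background correction (-0.59, adjusted p = 0.0774).

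The DAB1 probes by the same choice lie at chr1:57679170-57679229 and chr1:58545938-58545997.
DAB1 lower end: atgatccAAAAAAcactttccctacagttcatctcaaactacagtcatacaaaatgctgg
DAB1 higher end: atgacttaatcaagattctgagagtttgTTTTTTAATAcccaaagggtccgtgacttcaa
The lower one averaged -1.48 ± 0.27 in K562 and -2.11 ± 0.24 in U2OS. The higher one averaged -1.76 ± 1.46 in K562 and -1.27 ± 0.87 in U2OS. It read -3.34, -1.47 and -0.46 on the new-sorting, old-sorting and 44k K562 arrays, so the lines overlapped at this probe. Its U2OS arrays showed the same split as the gene's end, with -2.38 and -1.52 for manual and -0.43 and -0.73 for automated handling.

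CTNNA3 (chr10:67680076-69453500) had end-to-end values of 0.38, -0.88 and -0.40 in K562 and from 0.34 to 0.88 in U2OS. Its difference was -0.93 (SE 0.31, adjusted p = 0.0246). It missed the threshold without any 1 of 3 arrays: the old-sorting array (-0.64, adjusted p = 0.119), the 44k array (-0.88, adjusted p = 0.0678) and the first automated array (-0.84, adjusted p = 0.0693). It also missed it with normexp at an offset of 0 (-0.72, adjusted p = 0.0542) or 50 (-0.59, adjusted p = 0.0862), without background correction (-0.43, adjusted p = 0.169) and against the automated (-1.09, adjusted p = 0.0563) or manual arrays alone (-0.77, adjusted p = 0.188). The lower length read -1.86 ± 1.30 in K562 and -2.31 ± 0.25 in U2OS, and the higher length -2.17 ± 0.67 and -1.68 ± 0.07, so both ends entered the difference. In 5 equal parts, U2OS was latest in the first part (-2.34) and least late in the last (-1.22), while K562 was latest in the fourth (-2.66). None of the 7 windows of CTNNA3 passed the test between the lines.

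CNTNAP2 (chr7:145815487-148114931) was later in K562 along most of its length rather than at an end. Its end-to-end difference was -0.13 (SE 0.28, adjusted p = 0.728). In 5 equal parts K562 read -2.48, -2.64, -2.38, -2.56 and -1.86, and U2OS -1.74, -1.25, -1.43, -1.53 and -0.71. Of its 9 windows, 5 passed as later in K562, where 16.4% of all windows did. The largest difference was at chr7:146250001-146500000, with -2.75 ± 0.61 in K562 and -1.26 ± 0.42 in U2OS (-1.49, SE 0.33, adjusted p = 0.00749). Beyond the gene the direction turned: the window at chr7:148250001-148500000, with probes of C7orf33, read 1.5 in K562 and 0.80 in U2OS (adjusted p = 0.0494).

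By the same choice of probes, the ends of CNTNAP2 are represented at chr7:146236230-146236289 and chr7:147740163-147740222.
CNTNAP2 lower end: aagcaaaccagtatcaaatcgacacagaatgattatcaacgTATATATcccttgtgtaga
CNTNAP2 higher end: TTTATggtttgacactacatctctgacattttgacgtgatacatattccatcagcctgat
Both were later in K562, at -3.16 ± 0.81 against -1.81 ± 0.50 for the lower and -3.06 ± 0.95 against -1.48 ± 0.91 for the higher one.

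WWOX (chr16:78143693-79246026), an oxidoreductase with WW domains, was late along its whole length in both lines. In 5 equal parts it stayed between -2.47 and -1.56 in K562 and between -1.90 and -1.33 in U2OS. None of its 4 windows passed the test between the lines, but its flanks did: 3 of 4 windows on the lower side and all 3 on the higher side were later in K562. The window at chr16:77750001-78000000, with probes of VAT1L, read -2.08 against -0.69 (adjusted p = 0.000905). The higher flank of WWOX averaged -0.65 ± 0.46 in K562 and 0.32 ± 0.12 in U2OS. WWOX minus its flanks was -0.79 ± 0.26 in K562 and -1.37 ± 0.36 in U2OS, a difference that did not pass (0.58, SE 0.24, adjusted p = 0.0867).

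IMMP2L (chr7:110303422-111202026) had the latest mean of the 9 in U2OS, at -2.25, -1.85, -2.47 and -2.46 on the 4 arrays, though MACROD2 was the latest on the second manual array and NBEA on the first automated one. In K562 its higher end was less late than its lower end on the new-sorting (1.08) and 44k (1.17) arrays but not on the old-sorting array (-0.18). The window at that end, chr7:111000001-111250000, was the 1 of its 4 windows that passed, at -1.26 ± 0.69 in K562 and -2.30 ± 0.25 in U2OS (adjusted p = 0.0338). Further out on the same side, the window at chr7:111750001-112000000, with probes of DOCK4 and ZNF277, was later in K562 (-1.51 against -0.54, adjusted p = 0.0120).

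The ends of LRP1B (chr2:140990349-142886930), MACROD2 (chr20:13982937-16032396) and NBEA (chr13:35522735-36245945) did not differ by the test within either line, nor did those of WWOX. Over 5 equal parts the means of LRP1B, MACROD2 and NBEA covered 0.42, 0.71 and 0.29 in K562 and 0.67, 0.45 and 0.39 in U2OS. The other genes covered 0.64 (DAB1) to 1.78 (FHIT) in K562 and 0.24 (FHIT) to 1.12 (CTNNA3) in U2OS, so these ranges overlapped. None of their 8, 8 and 3 windows passed the test between the lines. Their flanks were late too, from -1.90 to -1.24 in K562 and from -2.47 to -0.83 in U2OS, and NBEA in U2OS was the only 1 of the 3 to pass as later than its flanks (-0.52 ± 0.16, adjusted p = 0.00711), a call lost under both background settings named above and against the lower flank alone. For MACROD2 in U2OS the value was -0.48 ± 0.23 (adjusted p = 0.0532), and it passed under 8 of 23 alternatives, without dim probes among them (-0.56, adjusted p = 0.0145).

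Over all 54 windows inside the 9 genes, 12 passed between the lines, where 31.0% of all windows did. Of these 6 were earlier in K562, in FHIT and IMMP2L, and 6 were later, in CNTNAP2 and DAB1. All 54 had a negative mean in U2OS, and 53 had one in K562. The 1 exception was the FHIT window with the largest difference. Without the new-sorting K562 array 24 of these windows passed, without the first automated array 7, and without the second automated array 6. The count over all 8913 windows moved too, from 2062 to 3583 as each array was left out, against 2767 with all arrays.

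Total signal also differed between the lines at 3 of the 9 genes, where 26.8% of all genes passed. It is a mean of the logs of both channels and was not adjusted for timing, so it need not measure DNA amount alone. In K562 it was higher for IMMP2L, at 1.22, 0.75 and 1.49 against -0.45, -0.85, -0.76 and -0.50 (difference 1.80, SE 0.21, adjusted p = 0.000345). It was also higher for CNTNAP2, at 0.39, 0.06 and 0.40 against -1.33, -1.19, -1.51 and -1.29 (1.61, SE 0.17, adjusted p = 0.000281). It was lower for MACROD2 (-0.85, SE 0.16, adjusted p = 0.00385). Over all genes 14.5% were higher and 12.3% lower in K562. FHIT did not pass (0.16, SE 0.22, adjusted p = 0.631).

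**Figure D5:**
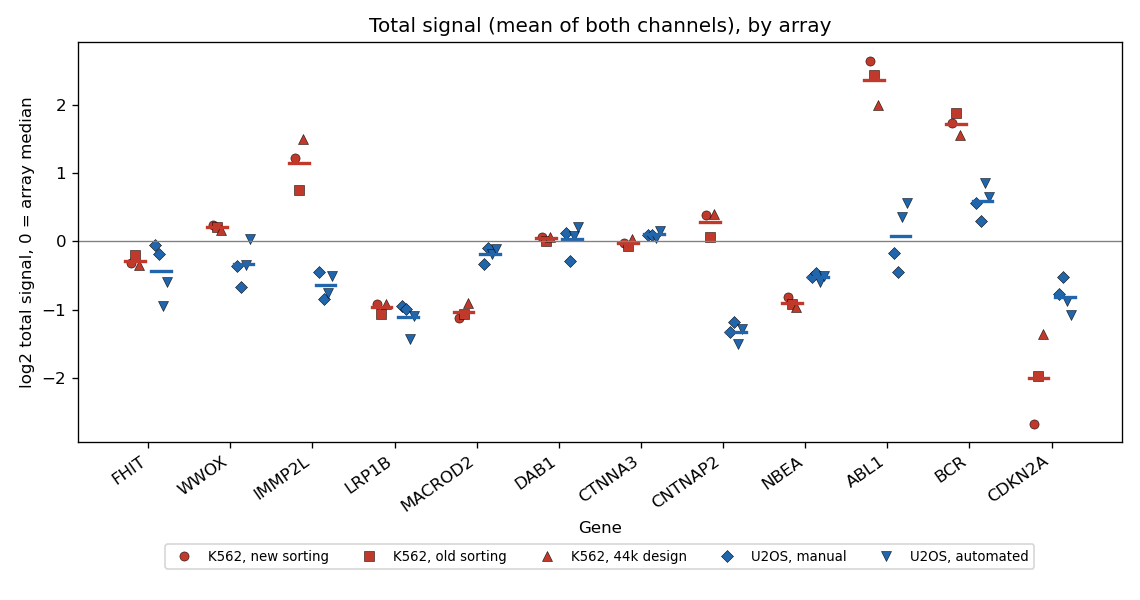
Total signal (mean of the log2 signals of both channels, 0 at the array median) of the 9 genes and of ABL1, BCR and CDKN2A on every array (red K562, n = 3; blue U2OS, n = 4; bars are means). CNTNAP2 and IMMP2L are brighter in K562 on every array, and MACROD2 is dimmer. The arrays of the lines did not overlap for 6 of the 9 genes and for 1617 of all 4515.

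The low total signal of CNTNAP2 in U2OS went with weak spots on the manual arrays. There 51.3% and 71.7% of its spots were not well above background in either channel, against 8.90% and 2.62% on the automated arrays. Its timing levels on the automated arrays (-1.52 and -1.39) lay below those on the manual ones (-1.24 and -1.20) and above all K562 values. Without dim spots, or with surrogate spots dropped, the level difference kept its sign but missed the threshold, as given above (-0.85 and -0.84 against -1.06). CNTNAP2 and IMMP2L are both on chromosome 7. Their contrasts with flanks differed between the lines with opposite signs, while the level difference of IMMP2L did not pass (0.37, SE 0.28, adjusted p = 0.343). A link between total signal and timing was not tested.

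Handling was the comparison within U2OS. None of the 9 genes differed in level between automated and manual arrays in limma (2 had an unadjusted p under 0.05), where 8.17% of all genes did. The differences, automated minus manual, ran from -0.47 (WWOX, SE 0.18, adjusted p = 0.135) to 0.28 (DAB1, SE 0.18, adjusted p = 0.313). This count turned on the background step: 9 of 9 passed as later on the automated arrays with normexp and an offset of 50, where 61.0% of all genes passed, and 8 of 9 without background correction. The manual arrays shared a slide and each automated array had its own, so handling and slide cannot be told apart.

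The 12 other fragile-site genes were put through the same contrasts. In level, 1 of the 12 differed between the lines (RORA, later in K562, -1.05, adjusted p = 0.00549) against 2 of the 9. In the contrast with flanks, 2 of 12 differed between the lines, each lower in K562 (THSD7A -2.04 and DMD -1.05), against 3 of 9. Within a line, 3 of the 12 were later than their flanks in U2OS and 5 in K562, against 7 and 4 of the 9. In total signal 6 of 12 differed, 1 higher and 5 lower in K562, against 3 of 9. End to end, 1 of 10 did (LSAMP, -1.09, adjusted p = 0.00881), against 3 of 9, and over the 219 other tested genes of at least 500 kb 37.9% did. No test compared these lists.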

How the data were processed

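The genes, lists and tests were chosen with earlier results of these data known, and 1 gene of the original list and 1 comparison gene are not reported here. Per the file headers, the deposited log10 ratio (late over early) and the processed intensity of each channel were written by Agilent Feature Extraction 11.5.1.1 on build hg19, background-subtracted and dye-normalized by the authors' scanner software, with weak signals replaced by surrogate values; the submitters' processing notes name version 9.1. From these, log2(early/late) was computed, spots with outlier flags dropped, repeated probes averaged and each array centred on its median probe. Loess was kept for an alternative because it can take timing signal for bias. Normexp, a background correction of each channel, was another alternative. Raw spot means and backgrounds in the deposited intensity columns served the alternatives. Gene bounds are the outermost probes of a name. limma 3.58.1 (lmFit, eBayes) in R 4.3.3 compared all 7 arrays, or the 4 U2OS arrays for handling, on genes with at least 3 probes, flanks of 1 Mb and windows of 250 kb on every array. Named windows were the highest, lowest and most different of each gene, and neighbours those with at least 3 probes in a changed flank window. The steps were tested on simulated data. FLRT3, LRRN3, LRRTM3 and MAB21L1, nested in these genes, were not analysed here. Strands of 8 of the 9 genes came from RefSeq, and LRP1B had no match.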

Additional observations from a re-analysis of the deposited data

Results flagged for a closer look

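Results that differed between the cell lines by a test of the difference (limma, adjusted p under 0.05) were, on the log2 scale and as K562 minus U2OS, the levels of FHIT (1.44) and CNTNAP2 (-1.06), the contrasts with flanks of FHIT (1.0), IMMP2L (0.72) and CNTNAP2 (-1.18), and the end-to-end values of FHIT (-1.5), DAB1 (-1.29) and CTNNA3 (-0.93). Of 36 sets of 4 U2OS values examined for a single array far from the other three (level, contrast with flanks, end to end and total signal of each gene), 0 had one.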

How the results depend on the processing

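Counts are of the 9 genes, or of their windows. For a level difference between the lines (2), 1 passed with normexp and an offset of 50, without background correction, without dim probes, with surrogate spots dropped, and against automated or manual arrays alone; leaving out each array gave 1 to 4. End to end (3), 1 passed with normexp and an offset of 50, 1 without background correction and 1 against manual arrays alone; leaving out each array gave 2 to 3. Contrast with flanks (3) gave 5 with at least 5 probes, 1 with the lower flank alone, and 2 to 4 leaving out each array. With at least 5 probes 44.7% of all genes passed, and the genes gained, WWOX and NBEA, kept their values (0.58 and 0.55). With the lower flank alone 32.4% of all genes passed. Windows (12) fell to 6 without background correction, 7 of 42 without dim probes, 6 of 41 with surrogate spots dropped and 4 of 25 at 500 kb; leaving out each array gave 6 to 24. With the lower flank alone, later than flanks in both lines (4) and in K562 (4) both became 1, and in U2OS (7) it became 4. Handling (0) gave 9 with normexp and an offset of 50, 8 without background correction, 2 with an offset of 0, 2 with surrogate spots dropped, and 0 to 1 leaving out each array. Fewer genes are tested with surrogate or dim spots dropped or with 5 probes. Otherwise the cause was not tested. Where no share of all genes or windows is given for a setting, the count was not set against one. Values that changed sign and passed the test before or after the change were, with the lower flank alone, gene minus flank in K562 of CTNNA3 (0.21), DAB1 (0.13) and FHIT (-0.85) and in U2OS of CNTNAP2 (0.52), CTNNA3 (0.49) and IMMP2L (0.10), and for automated minus manual DAB1 (-0.43 and -0.35) and MACROD2 (-0.60 and -0.51) with an offset of 50 and without background correction. The surrogate, single-flank and end-to-end handling settings were chosen after seeing the data.

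Over all genes, the level count (1391) ran from 594 to 1778, contrast with flanks (1386) from 716 to 1807 and end to end (179) from 39 to 228. Later than flanks ran from 511 to 1300 in K562 (926) and from 522 to 1185 in U2OS (856). Windows (2767) ran from 1409 to 5302, and handling (369) from 288 to 2756, or from 0 to 1339 leaving out each array. Each low end but those of windows and handling came with at least 5 probes, where fewer genes are tested. There 36.8% of genes passed for level and 44.7% for contrast with flanks, against 30.8% for each with at least 3 probes. The total-signal count (1208) was 778 without background correction and 712 without the new-sorting array; 3 of the 9 passed under both total-signal alternatives. Same-numbered U2OS arrays did not deviate together (r = -0.01 over 4515 genes), and with a replicate block 0 of the 9 genes passed the handling test. Weak late-channel signal on the 44k array limits how early its values can read. On the old-sorting K562 array 44.8% of spots were well above background in the early channel and 76.4% in the late one. Weak early-channel signal limits how late the values of that array can read.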

Other observations

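The study's own control loci were covered by few probes. DPPA2, the late control, was late on all 7 arrays, from -2.49 to -0.87, with 2 probes on the larger design. BMP1, the early control, was early on the 6 larger arrays, from 0.78 to 1.90 over 3 probes, and its single probe on the 44k array read -3.32.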
